A study of Mus musculus with 6 samples.

Results

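The receptor for leukemia inhibitory factor (LIF) and the JAK-STAT3 signalling chain behind it were followed through 8 mouse genes, Lifr, Il6st, Osmr, Jak1, Jak2, Stat3, Socs3 and Pim1. Every array probe annotated to 1 of these genes was taken, which gave 21 of the 45281 probes on the array and 8 of the 19057 genes named there. The series compared spermatogonial stem cells (SSC) with embryonic stem cells (ESC). SSC are germ cells of the testis that renew themselves and give rise to sperm, with the strain given as C57BL/6. ESC are pluripotent cells derived from the early embryo, with the strain given as R1/E. The titles of all 3 ESC samples carry this same R1/E label. Total RNA of 3 SSC samples and 3 ESC samples was hybridised, each to 1 Illumina bead array with 1 colour. No treatment, genotype, culture medium, age or sort is given in the sources used here, so it is not known here whether either cell type was kept with LIF. Cell type and strain label differ together between the groups and cannot be told apart. The labels number the samples as replicates but do not say that each came from its own culture or animal. The p-values therefore rest on the variation among the 3 arrays of a group, part or all of which may be technical.

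LIF binds the receptor chain LIFR, which pairs with gp130, the product of Il6st and the chain shared by the whole interleukin-6 family, while the oncostatin M receptor OSMR is another partner of gp130. The tails of these receptors carry the tyrosine kinases JAK1 and JAK2, which phosphorylate STAT3, a transcription factor that then enters the nucleus. STAT3 induces SOCS3, which binds gp130 and JAK and shuts the signal off, and the kinase PIM1. In mouse embryonic stem cells this route is known for holding cells in self-renewal, and LIF is also a common additive in cultures of germline stem cells.

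Probes with a detection p under 0.01 (the probe against the array's negative controls) numbered 16505 to 17211 on the SSC arrays and 15242 to 15613 on the ESC arrays. A probe was tested when detected in this way on at least 3 of the 6 arrays, and it was called at a Benjamini-Hochberg adjusted p under 0.05 in limma over all 17435 probes tested. Differences are SSC minus ESC in log2 units of normalized intensity. The groups differed widely: 73.6% of the tested probes were called, 36.1% higher and 37.5% lower in SSC. Of the calls 49.0% were higher in SSC, or 59.5% where arrays were scaled on their medians, which moved the median difference of all tested probes to 0.18 from −0.03. Both labels were checked against marker genes. All 10 pluripotency genes were lower in SSC, with a summed normalized intensity of 1803 to 2019 on the SSC arrays and 17851 to 18302 on the ESC arrays, and Nanog, Esrrb and Tdgf1 were not detected in SSC. Of 10 spermatogonia genes 7 were higher in SSC, 1 was lower and 2 were not called, with sums of 8077 to 8570 in SSC and 2936 to 3108 in ESC. Among genes detected on all 6 arrays, 5 of 5 pluripotency genes were lower. Of 9 such spermatogonia genes 6 were higher, 1 lower and 2 not called.

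Of the 21 member probes, 12 could be tested, and 10 of these were called, 4 higher and 6 lower in SSC. That is 83.3% of the member probes tested, beside 73.6% of all probes. The SSC and ESC values did not overlap for 10 of the 12, beside 75.3% of all tested probes. Counted by gene, with each gene represented by its brightest tested probe, 5 of the 7 genes measured were called (71.4%, beside 74.4% of all 10024 genes measured). The kinase gene Jak2 was higher in SSC, while Jak1, Stat3, Socs3 and Pim1 were lower by their brightest probes. Neither Lifr nor Il6st passed the test, and no probe of Osmr could be tested. Of the 12, 2 passed the detection filter through SSC alone, the dimmer Jak1 probes, and among the 8 detected on all 6 arrays 1 was called higher and 5 lower. Over all 12704 probes detected on all 6 arrays, 3990 were called higher and 5149 lower. The median over the 12 member probes was −0.28, beside −0.03 over all tested probes, but it depended on which probes entered. It was −0.56, −0.67 and −0.49 without SSC array 1, 2 or 3, which each drop the dimmer Jak1 probes, −0.58 over the 8 probes, −0.09 with scaling on array medians and −0.01 with a detection limit of 0.05. It was −0.16 both without background correction and from the authors' table. The median over all probes tested moved too. It was −0.15 without SSC array 1, 2 or 3, −0.12 over probes detected on all 6 arrays and 0.18 with scaling on array medians. With a detection limit of 0.05 it was −0.03, and without background correction or from the authors' table −0.01.

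**Figure D1:**
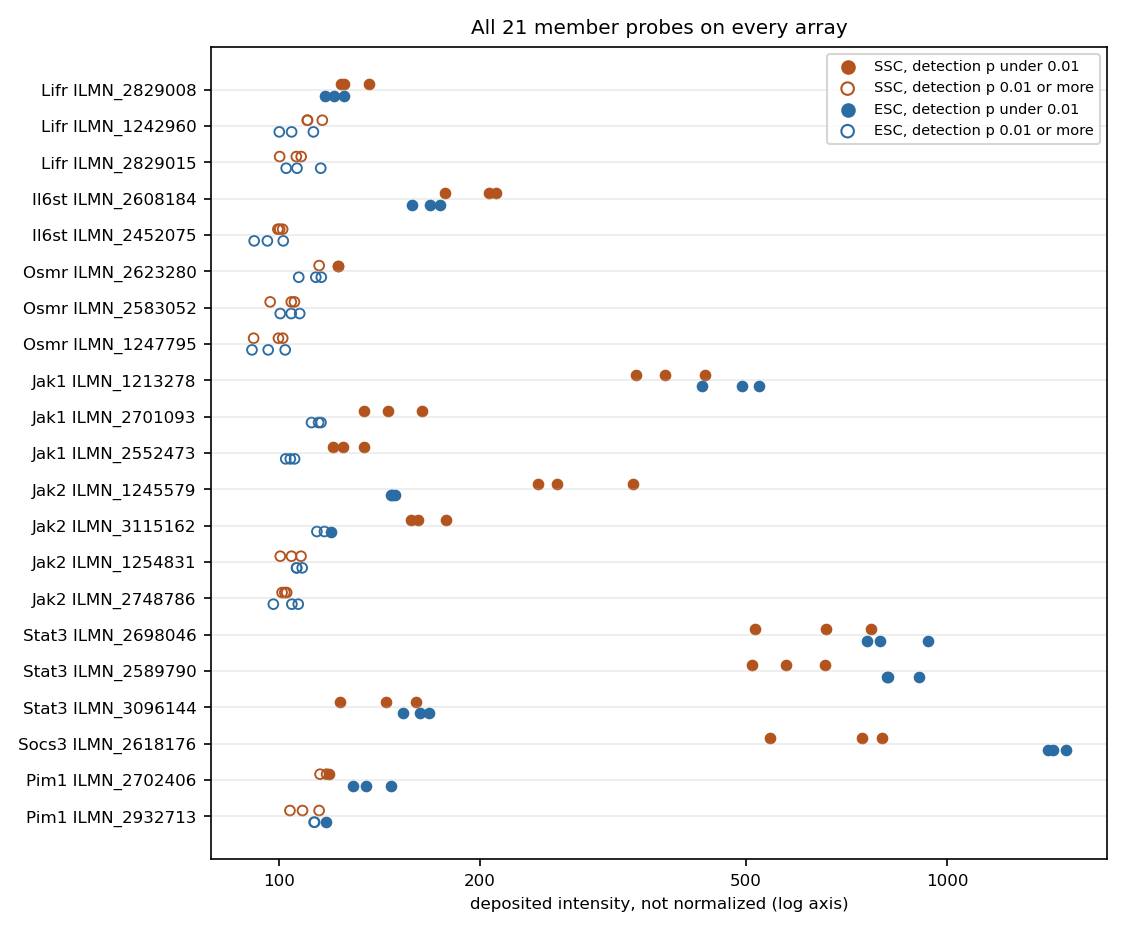
Deposited intensity (log axis, not normalized between arrays) of all 21 member probes, with 1 symbol per array, SSC in orange above ESC in blue, filled where the detection p was under 0.01. The probes of Lifr and Osmr and 9 probes left untested lie close to the lowest detected intensities of the arrays (114 to 118), while Socs3 and 2 of the 3 Stat3 probes lie far above them.

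The receptor chains gave weak signals. Lifr, which binds LIF itself, was detected on all 6 arrays by 1 of its 3 probes. That probe (ILMN_2829008) had deposited intensities of 124, 137 and 125 on SSC arrays 1, 2 and 3, against 125, 121 and 117 on ESC arrays 1, 2 and 3. The lowest intensity at which any probe was detected was 114 to 118, so the Lifr signal stood little above the background, and the groups overlapped. The difference was −0.01 ± 0.13 (SE, n = 3 per group; limma adjusted p = 0.946), with a 95% interval of −0.29 to 0.27. A change of more than 0.29 on the log2 scale in either direction lies outside this interval, which holds for this normalization only. So close to the background the interval does not exclude a larger change in Lifr RNA. Under scaling on array medians the difference was 0.27 (adjusted p = 0.0861). The other Lifr probes (ILMN_1242960 and ILMN_2829015) were detected on 0 arrays at this limit.

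Il6st, which encodes gp130, was detected on all 6 arrays by ILMN_2608184. Its deposited intensities were 212, 206 and 177 in SSC, against 174, 168 and 158 in ESC, so that every SSC array read higher before normalization. After quantile normalization the groups overlapped, at 6.83, 6.61 and 6.38 in SSC and 6.63, 6.54 and 6.41 in ESC. The difference of 0.08 ± 0.14 (SE) was not called in limma (adjusted p = 0.598, 95% interval −0.21 to 0.38). Scaling on array medians turned it into a call of 0.44 (adjusted p = 0.0121), in a setting where the median of all tested probes was itself at 0.18. The call of Il6st therefore depended on the scaling. A further Il6st probe (ILMN_2452075) was detected on 0 arrays.

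Osmr, the partner chain of gp130 for oncostatin M, had 3 probes and none was tested. The brightest of them (ILMN_2623280) had deposited intensities of 122, 122 and 115 in SSC, against 107, 116 and 114 in ESC. It was detected on 2 of the 3 SSC arrays and on 0 of the 3 ESC arrays. With a detection limit of 0.05 it entered the test and was not called (0.18 ± 0.15, limma adjusted p = 0.282). The other probes of Osmr were detected on 0 arrays.

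Of the kinases, Jak2 was higher in SSC by both of its tested probes. For the brighter one (ILMN_1245579) the deposited intensities were 244, 338 and 261 in SSC, against 149, 147 and 147 in ESC, and the groups lay well apart. The difference was 1.28 ± 0.14 (SE, n = 3 per group; limma adjusted p = 3.25e-06), or 2.43-fold. The second probe (ILMN_3115162) gave 157, 178 and 162 in SSC, against 120, 117 and 114 in ESC, and was detected on 1 of the 3 ESC arrays. It differed by 1.09 ± 0.12 (adjusted p = 3.79e-06). Without background correction these differences were 0.72 and 0.39, both still called. The remaining Jak2 probes (ILMN_1254831 and ILMN_2748786) were detected on 0 arrays.

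The probes of Jak1, the other kinase on these receptors, disagreed. The brightest (ILMN_1213278) had deposited intensities of 342, 434 and 378 in SSC, against 524, 493 and 430 in ESC, a range that overlapped by a single array of each group. After normalization the groups no longer overlapped, at 7.92, 8.22 and 8.13 in SSC and 8.80, 8.75 and 8.58 in ESC. The probe fell by 0.62 ± 0.13 (SE) on the log2 scale in SSC (limma adjusted p = 6.28e-04).

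A pair of dimmer Jak1 probes went the other way. ILMN_2701093 read 134, 164 and 146 in SSC, against 112, 116 and 115 in ESC, and ILMN_2552473 read 134, 121 and 125 in SSC, against 104, 106 and 102 in ESC. Both were detected on all 3 SSC arrays and on 0 ESC arrays. For probes not detected in a group the fold is given as a bound, against the probe's own value or the array's lowest detected value, whichever is higher on each array. Such a bound holds for the background-corrected values only. By that measure the dimmer Jak1 probes were at least 1.67-fold and at least 1.13-fold higher in SSC (limma adjusted p = 1.28e-04 and 1.63e-04). Without background correction their differences were 0.28 and 0.25 on the log2 scale, both still called. The mean of the 3 probes gave a difference of 0.36 (adjusted p = 0.00481), opposite in sign to the brightest probe alone. Which transcripts each probe reads was not analysed here, so no direction is given for Jak1 as a gene.

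**Figure D2:**
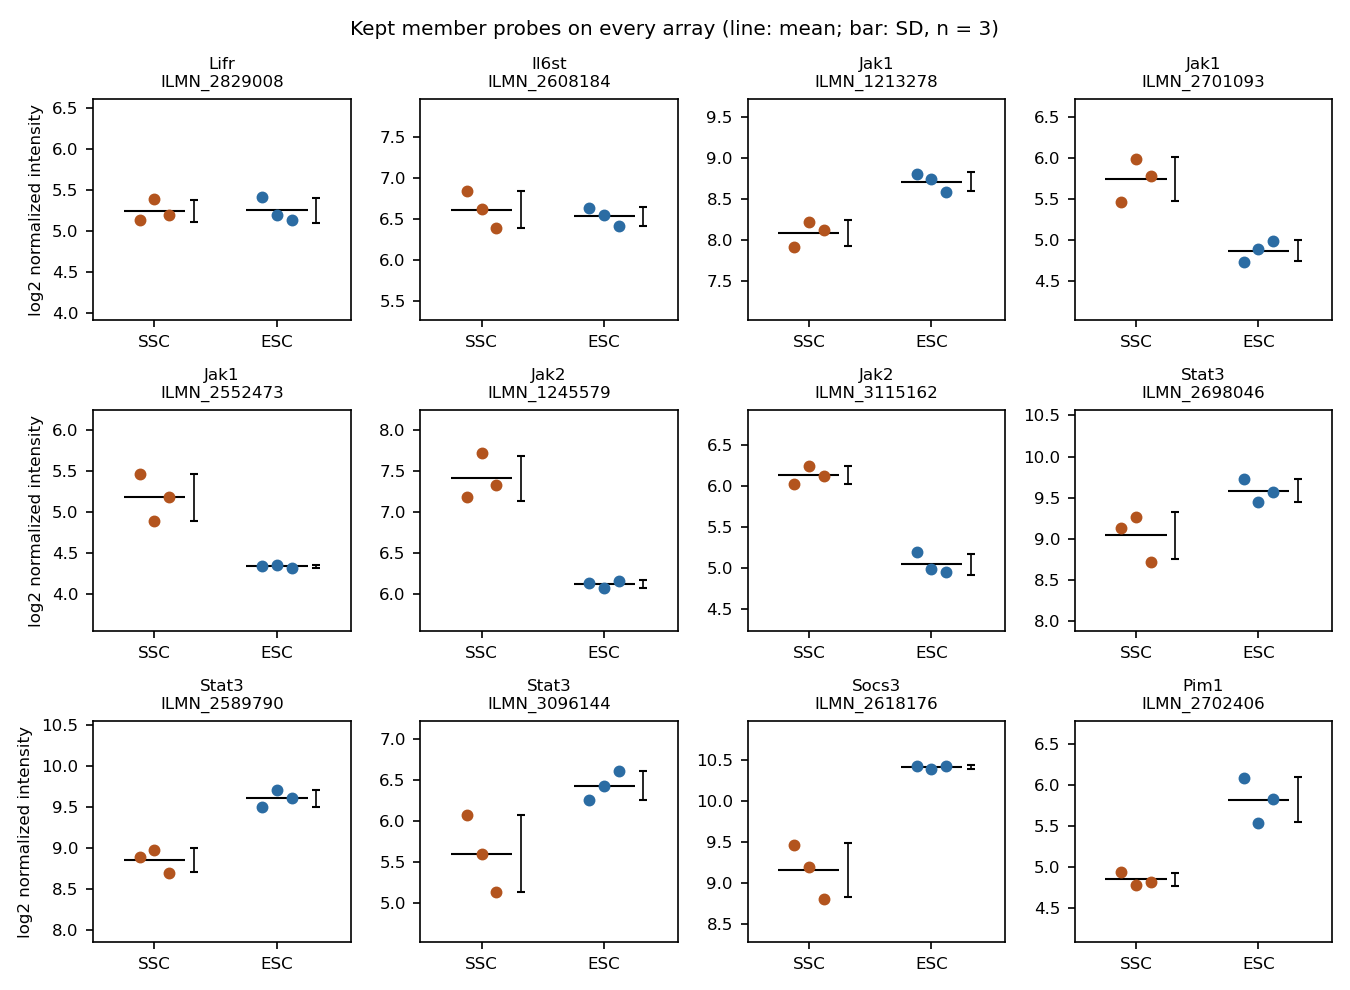
Normalized log2 intensity of the 12 tested member probes, with 1 point per array, SSC left of ESC, a line at the mean and a bar of 1 SD (n = 3), every panel spanning the same log2 range. The groups overlap for Lifr and Il6st and lie apart for the other 10 probes, with the Jak2 probes higher in SSC and the Stat3, Socs3 and Pim1 probes lower.

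The transcription factor Stat3 was lower in SSC by all 3 of its probes. The brightest by its mean (ILMN_2698046) had deposited intensities of 659, 771 and 516 in SSC, against 937, 760 and 795 in ESC, where SSC array 2 reached into the ESC range. Normalized values did not overlap, at 9.13, 9.27 and 8.71 in SSC and 9.73, 9.45 and 9.57 in ESC. It fell by 0.54 ± 0.15 (SE) on the log2 scale in SSC (limma adjusted p = 0.00577). ILMN_2589790 read 574, 656 and 511 in SSC, against 813, 908 and 817 in ESC, and the groups lay apart before normalization too. This probe fell by 0.75 ± 0.12 (adjusted p = 1.15e-04). The dimmest probe (ILMN_3096144) read 160, 145 and 123 in SSC, against 154, 163 and 168 in ESC. It fell by 0.83 ± 0.20 (adjusted p = 0.00196), or by 0.34 without background correction. In all 3 probes SSC array 3 was the lowest of the 6 arrays, and without that array the differences were −0.38, −0.67 and −0.60, each still called. Stat3 signal thus stayed well above background in SSC, where its brightest probe kept 0.686 of its ESC intensity.

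Socs3, the feedback inhibitor, had the largest difference toward ESC among the member probes. Its single probe (ILMN_2618176) had deposited intensities of 800, 745 and 543 in SSC, against 1509, 1440 and 1417 in ESC. The ESC arrays lay within a narrow band while the SSC arrays spread over a wider one, and the groups did not come near each other. Normalized means were 9.16 ± 0.33 in SSC and 10.42 ± 0.03 in ESC (SD, n = 3 each). Socs3 fell by 1.26 ± 0.15 (SE) on the log2 scale in SSC (limma adjusted p = 7.71e-06), so that ESC carried 2.39 times the SSC signal. Over the alternatives tried, the difference of Socs3 lay between −1.41 and −1.09.

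Pim1, a serine/threonine kinase gene induced by STAT3, was dim. Its brighter probe (ILMN_2702406) read 119, 118 and 115 in SSC, against 147, 129 and 135 in ESC. It was detected on 1 of the 3 SSC arrays and on all 3 ESC arrays, and the groups did not overlap. It fell by 0.97 ± 0.14 (SE) on the log2 scale in SSC (limma adjusted p = 4.56e-05), with the SSC values at the edge of detection. Without background correction the fall was 0.31. The second probe (ILMN_2932713) was detected on 1 array only and could not be tested. With a detection limit of 0.05 it was called lower in SSC as well (−0.37 ± 0.14, limma adjusted p = 0.0337), and with no detection filter it was not (adjusted p = 0.0806).

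**Figure D3:**
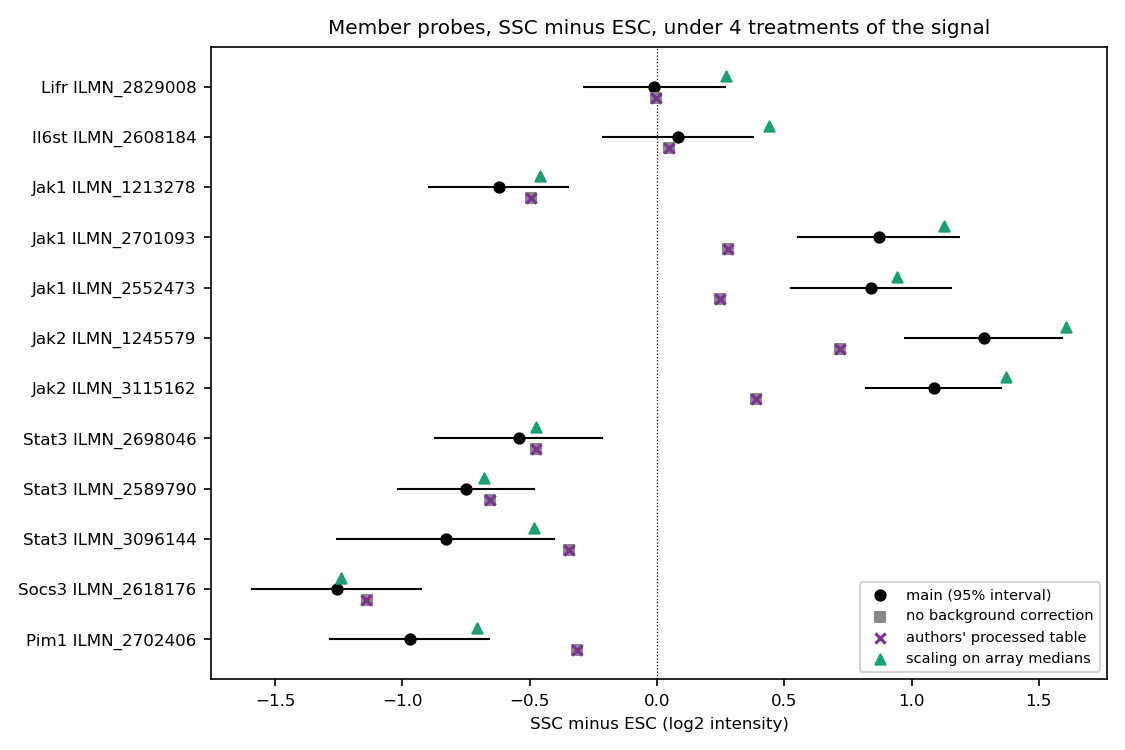
Difference between SSC and ESC (log2 intensity, SSC minus ESC) of the 12 tested member probes, with the main estimate and its 95% interval in black and estimates without background correction (squares), from the authors' processed table (crosses, on top of the squares) and with scaling on array medians (triangles). The 10 called probes keep their sign in all 4, while the dim Jak1, Jak2, Stat3 and Pim1 probes shrink without background correction.

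The authors' processed table gave the same sign for all 12 tested probes and the same 10 calls. In it Socs3 was at 794, 676 and 537 in SSC, against 1471, 1429 and 1470 in ESC. Jak2 (ILMN_1245579) was at 232, 298 and 248 in SSC, against 157, 154 and 159 in ESC. The differences from that table were −1.14 for Socs3 and 0.72 for Jak2. Of the 10 called member probes, 6 had differences more than 1.5 times smaller there than after background correction: the Jak2 probes, the dimmer Jak1 probes, the dimmest Stat3 probe and Pim1. Their direction was kept, while the size of their difference depended on the background correction.

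These are bulk RNA samples, in which fewer cells of a type and less RNA per cell cannot be told apart. Markers of testis somatic cells differed between the same samples. In these counts, a gene not detected in 1 group passed the detection filter only through the group where it was high. Over all genes 37.9% were called higher and 36.5% lower. Of 10 measured Sertoli cell genes 7 were higher in SSC, 2 lower and 1 not called. Of the 10, 4 (Amh, Fshr, Gata4 and Sox9) were not detected in ESC. Among the 5 detected on all 6 arrays 2 were higher, 2 lower and 1 not called. Summed intensities of the list were 3275 to 3529 in SSC and 1549 to 1820 in ESC. Most of the ESC sum was Rhox5, and without it the sums were 2997 to 3244 in SSC and 311 to 334 in ESC. Cldn11 (4.77), Amh (4.34) and Fshr (3.76) had the largest differences toward SSC, and Rhox5 (−2.18) the largest toward ESC. Of 12 measured fibroblast and peritubular myoid genes 9 were higher, 2 lower and 1 not called. Of the 12, 6 were not detected in ESC and 1, Tagln, was not detected in SSC. Among the 4 detected on all 6 arrays 2 were higher, 1 lower and 1 not called. Sums of the list were 8638 to 9562 in SSC and 3910 to 4075 in ESC. Without Acta2, the highest gene of the list in ESC, the sums were 5926 to 7339 in SSC and 1079 to 1162 in ESC. Dcn (7.13), Col6a1 (5.34) and Myh11 (3.72), not detected in ESC, had the largest differences toward SSC. Fn1 (−1.98) had the largest toward ESC. Tagln was not detected in SSC, and Pdgfrb, Cnn1 and Postn were not detected in either group. Leydig cell genes were higher for 3 of 4 measured and lower for 1 (640 to 811 in SSC, 344 to 356 in ESC). Of the 3, Cyp17a1 (3.03) and Hsd17b3 (2.54) were not detected in ESC, and Insl3 (0.80) was detected on all 6 arrays. The lower gene was Cyp11a1 (−1.23), detected on 2 SSC arrays and on all 3 ESC arrays. Star, Hsd3b1 and Hsd3b6 were not detected in either group. Macrophage and leukocyte genes were higher for 3 of 5, and Ptprc, Adgre1, Tyrobp and C1qa were not detected in either group. The list summed to 341 to 372 in SSC and 1128 to 1204 in ESC. Most of that ESC sum was Laptm5, and without it the sums were 276 to 298 in SSC and 212 to 221 in ESC. The 3 higher genes, Lyz2, Fcer1g and C1qc, were not detected in ESC. Endothelial genes were higher for 1 of 7, Cdh5, which was not detected in ESC. They were lower for 4, with sums of 518 to 555 in SSC and 1633 to 1774 in ESC. Pecam1 was not detected in SSC. Without Pecam1 the sums were 495 to 536 in SSC and 948 to 991 in ESC. The part of these cell types in the member differences was not tested.

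Around the members, 97 other genes of the pathway were listed by role, of which 87 had a probe and 60 were measured. Of these 60, 44 were called, 20 higher and 24 lower in SSC. The share called (73.3%) was near that of all genes (74.4%), and the median was −0.09, beside 0.00 over all genes. The sign of this median was not stable, at 0.06 without ESC array 1, 0.03 without ESC array 3 and 0.20 with scaling on array medians, against −0.15 without SSC array 1 or 2. With scaling on array medians the split was 28 higher and 22 lower. The counts below cover genes that passed the detection filter, which a gene undetected in 1 group passed only through the group where it was high. Of the 44 called genes, 24 shrank by more than 1.5 times when the background was not corrected, so the sizes below hold for the background-corrected values. Folds given as at least are bounds for those values only. Without background correction the log2 difference was −1.70 for Ptpn6, −0.98 for Jak3, 0.76 for Il10rb and −0.40 for Osm.

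**Figure D4:**
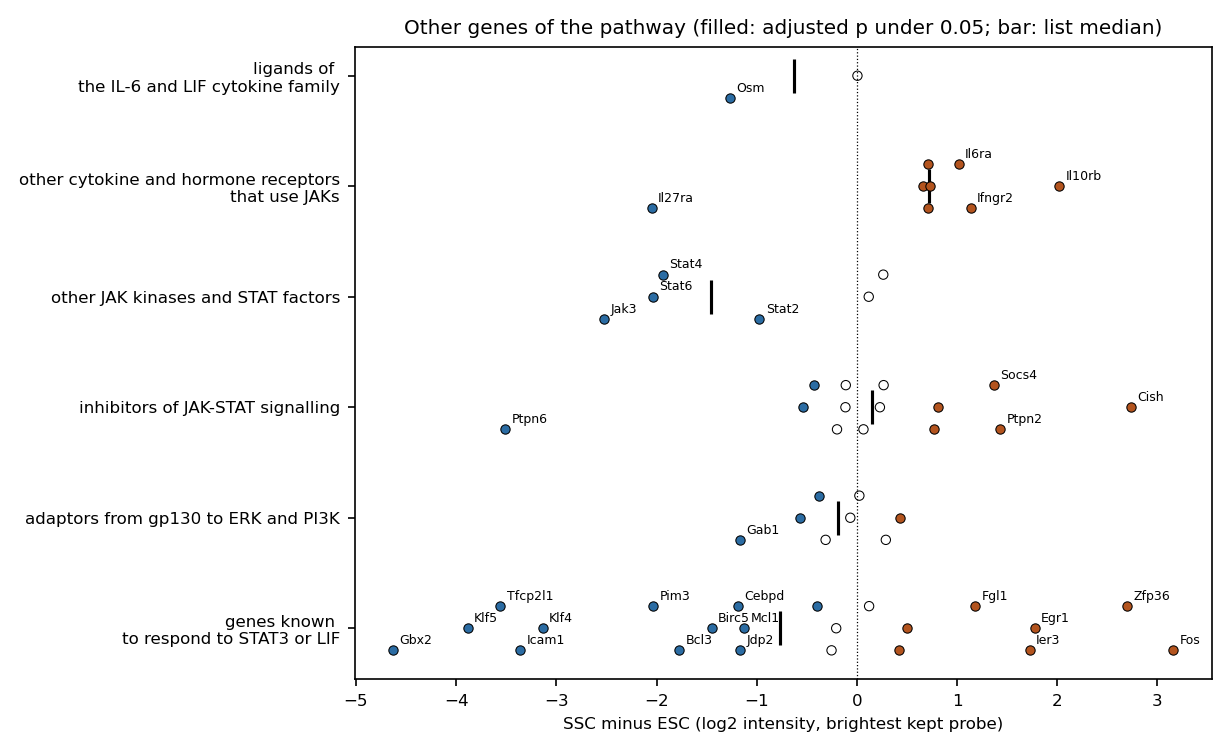
Difference between SSC and ESC (log2 intensity, SSC minus ESC) of the 60 measured pathway genes by list, with 1 circle per gene, filled orange (higher in SSC) or blue (lower) where the adjusted p was under 0.05 and open otherwise, and a bar at each list's median. Receptor genes lie mostly to the right of 0 and most of the other JAK and STAT genes to the left, and the response genes reach from −4.63 (Gbx2) to 3.16 (Fos).

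Ligands of the family were mostly below detection. Of 11 ligand genes with a probe 2 were measured, and Lif, Il6, Cntf, Clcf1 and Il11 were not detected in either group by their brightest probes. Osm, the gene of oncostatin M, was detected on all 3 ESC arrays and on 0 SSC arrays and was at least 2.18-fold lower in SSC (limma adjusted p = 6.61e-07). Ctf1, the gene of cardiotrophin 1, was at 6.49 in SSC and 6.48 in ESC and was not called (adjusted p = 0.973), though scaling on array medians called it higher in SSC (0.35, adjusted p = 0.0339).

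Other cytokine and hormone receptors that signal through JAK kinases were higher in SSC for 7 of 8 measured genes and lower for 1, beside 37.9% of all genes called higher. Of the 7, 3 (Il10rb, Il6ra and Ifnar2) were not detected in ESC and had to differ to be tested, and 3 (Ghr, Ifngr1 and Ifngr2) were detected on all 6 arrays. Il10rb, a chain of the interleukin-10 receptor, was detected on 0 ESC arrays and was at least 3.13-fold higher in SSC, with its other tested probe at a difference of 0.79. Ifngr2, a chain of the interferon gamma receptor, was higher by 1.14 ± 0.15 (SE). Il6ra, the binding chain for interleukin-6, was at least 1.91-fold higher, detected on all 3 SSC arrays and 0 ESC arrays, but its other tested probe was at −0.38. Il27ra, whose product pairs with gp130, went the other way (−2.05 ± 0.14) and was detected on 1 of the 3 SSC arrays. The limma adjusted p of these 4 genes was 1.68e-05 or less.

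Of the other JAK and STAT genes 0 of 6 measured were higher, 4 were lower and 2 were not called, beside 36.5% of all genes called lower. Jak3 and Stat4 were not detected in SSC and had to differ to be tested. On all 6 arrays only Stat2, called lower, and Tyk2, not called, were detected. Jak3, the kinase that serves receptors with the common gamma chain, was detected on 0 SSC arrays and was at least 4.31-fold lower there (limma adjusted p = 4.45e-09), and its other tested probe was at −2.03. Stat6, known from interleukin-4 signalling, was at −2.03 ± 0.13 (SE) and detected on 1 SSC array. Stat4, known from interleukin-12 signalling, was at least 2.96-fold lower and not detected in SSC. Tyk2 was at 7.97 ± 0.06 in SSC and 7.85 ± 0.12 in ESC (SD, n = 3 each) and was not called (adjusted p = 0.376). Stat5a, detected on 2 SSC arrays and 1 ESC array, was not called either (0.26 ± 0.17, adjusted p = 0.184). With scaling on array medians Tyk2 (0.35) and Stat5a (0.38) were called higher. Stat5b was not detected in either group.

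Of 14 measured inhibitors of the pathway 5 were higher in SSC, 3 lower and 6 not called. The share called was 57.1%, beside 74.4% of all genes. Cish, a relative of Socs3 best known as a target of STAT5, was at 10.04 ± 0.25 in SSC and 7.30 ± 0.11 in ESC (SD, n = 3 each). It was higher by 2.74 ± 0.14 (SE; limma adjusted p = 1.92e-09), while Socs3 was lower in the same samples. Socs2, another relative, was at 10.37 in SSC and 10.11 in ESC and was not called (adjusted p = 0.110), but was called without SSC array 1 (0.38, adjusted p = 0.044) and without ESC array 1 (0.39, adjusted p = 0.028). Socs1 was not detected in either group. Ptpn2, a phosphatase of JAK and STAT proteins, was higher (1.43 ± 0.11), as was Socs4 (1.36 ± 0.12), whose other tested probe was at −0.81. Ptpn6, the phosphatase SHP-1 of blood cells, was at least 9.70-fold lower and not detected in SSC, with its other tested probe at −1.65. Pias4 (−0.53 ± 0.12) and Pias2 (−0.42 ± 0.12), of a family of SUMO ligases, were lower, and the call of Pias2 was lost with scaling on array medians (−0.12).

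Of 8 measured adaptor genes that lead from gp130 to ERK and PI3K signalling, 1 was higher, 3 were lower and 4 were not called. That is 50% called, beside 74.4% of all genes. Gab1, a docking protein, was lower (−1.17 ± 0.13, SE), as was Shc1 (−0.56 ± 0.11). Sos1, an exchange factor for RAS, was lower by a small amount (−0.38 ± 0.13, limma adjusted p = 0.022). This call was lost without SSC array 1 (−0.35), without ESC array 2 (−0.25), without background correction (−0.10) and with scaling on array medians (−0.15). It was also lost from the authors' table (−0.10), with an offset of 50 in the background correction (−0.18) and at an adjusted p under 0.01. Pik3ca, the catalytic subunit of PI3K, was at least 1.09-fold higher and not detected in ESC. Its call was lost without background correction and from the authors' table (0.12 in both).

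Of 22 measured genes known from other work to respond to STAT3 or LIF, 12 were lower in SSC, 7 higher and 3 not called. The share called was 86.4%, beside 74.4% of all genes. Over all genes 36.5% were called lower and 37.9% higher, so both directions were common on the array, while this list leaned toward lower. The list's median was −0.76, beside 0.00 over all genes. The summed intensities of its 25 genes with a probe overlapped, at 15012 to 19138 in SSC and 17689 to 18800 in ESC. The transcription factor genes Gbx2 (−4.63 ± 0.11, SE), Klf5 (−3.88 ± 0.11) and Tfcp2l1 (−3.56 ± 0.13), which carry the LIF signal into the naive pluripotency network, had the largest falls in SSC. Pim3, a relative of Pim1, was at 8.26 ± 0.23 in SSC and 10.29 ± 0.11 in ESC (SD, n = 3 each), lower by a difference of −2.03 ± 0.14 (SE). Pim2 was not detected in either group. The early response genes Fos (3.16 ± 0.16), Zfp36, an RNA decay factor (2.70 ± 0.21), and Egr1 (1.77 ± 0.14) were higher in SSC. The limma adjusted p of these 7 genes was 1.31e-07 or less. Klf4 was lower too (−3.14 ± 0.17), with its other tested probes at −1.43 and −1.16. Gbx2, Klf5, Tfcp2l1 and Klf4 are also genes of the pluripotent state, in which the groups differ by definition, and a part of STAT3 in their difference was not tested. All of them are among the 12 lower genes, so the list's lean and median rest in part on them.

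STAT dimers bind the palindrome TTCNNNGAA, which reads the same on both strands. It was searched in the RefSeq promoter windows of build GRCm38.p6, from 250 bases before to 50 bases after each annotated start. Of 10 windows of the 8 member genes 1 held it, that of Socs3, beside 8.3% of all 32851 windows. Of 102 windows of the other pathway genes 11 held it (10.8%), those of Cish, Icam1, Zfp36, Bcl6, Gab1, Ifnar1, Ifnar2, Il31ra and Prlr. The stretches below show the motif in capitals for Socs3 and for 3 other genes that were called, Icam1 and Zfp36 before the start and Cish just after it. Icam1 was picked for this after its values were seen. Gab1 (lower in SSC) and Ifnar2 (higher) were also called and held the motif, but their stretches are not shown.
Socs3: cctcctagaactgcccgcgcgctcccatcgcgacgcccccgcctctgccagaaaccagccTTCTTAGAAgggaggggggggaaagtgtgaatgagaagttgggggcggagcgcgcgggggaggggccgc
Icam1: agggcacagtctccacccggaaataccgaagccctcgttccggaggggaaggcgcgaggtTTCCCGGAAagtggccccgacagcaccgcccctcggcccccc
Zfp36: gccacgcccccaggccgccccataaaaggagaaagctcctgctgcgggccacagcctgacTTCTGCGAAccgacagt
Cish: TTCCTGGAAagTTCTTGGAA

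The Socs3 stretch is chr11:117969452-117969580 on the minus strand, and its motif begins 154 bases before the start. The Icam1 stretch is chr9:21015838-21015939 on the plus strand, with the motif 42 bases before the start. The Zfp36 stretch is chr7:28379229-28379305 on the minus strand, with the motif 17 bases before the start. The Cish stretch is chr9:107296659-107296678 on the plus strand and holds 2 copies. Of these 4 genes Socs3 and Icam1 (−3.36 ± 0.20, SE) were lower in SSC, and Zfp36 and Cish were higher, so the motif occurred on both sides. The related palindrome with 4 bases between TTC and GAA was in 0 of the 10 member windows, beside 6.95% of all windows. A match is a description of the letters and not of binding.

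The genes with profiles most like those of the most changed members were sought among the 12704 probes detected on all 6 arrays, by the root mean square distance between the 6 log2 values after each probe's mean was taken off. Msl1, a gene of a chromatin complex, was nearest to Jak2 (ILMN_1245579) at a distance of 0.055, followed by Ncstn, which encodes the gamma-secretase subunit nicastrin, at 0.070 and Vgll4 at 0.072. All of them were highest on SSC array 2, as Jak2 was. Lypla1 (0.077), Plekhb1 (0.080) and 6820431F20Rik (0.081) were nearest to Socs3, and all were lowest on SSC array 3. The likeness is a description over 6 arrays.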

How the data were processed

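One deposited table gives an intensity (linear, not normalized between arrays) and a detection p-value for each probe on each array. The submitters' processing notes name GenomeStudio and give no version. Processed intensities stand in another table of the authors. Its columns share their quantiles, with medians of 107.09 to 107.14, and rank the probes nearly as the unnormalized columns do (rank correlation at least 0.9998). The sources used here do not say how it was made.

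Background was removed with normexp, its parameters estimated through the detection p-values (offset 16), and values were quantile normalized, log2 transformed and fitted with lmFit and eBayes (limma 3.58.1, R 4.3.3), without covariates. The fit was tested on simulated data, with larger simulated differences after a first version missed the recovery required for smaller ones. The test therefore does not show good recovery of smaller differences, the size of several member differences. Few probes were changed in the simulation, while 73.6% of the tested probes were called in these data. Correlations between arrays were 0.989 to 0.993 within a group and 0.784 to 0.795 across groups. Only 3 arrays per group limit the precision. The platform's annotation named 34885 probes with 1 symbol, 18 with several and 10378 not at all. Of those with 1 symbol, 34807 matched RefSeq (GRCm38.p6), and 0 symbols changed. A gene was represented by its brightest tested probe. Where a gene of the lists is said to be not detected, only its brightest probe was read.

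The members and gene lists were chosen with earlier results of these data known. Named from each pathway list were up to 3 called genes per direction with the largest differences, and a set of family relatives called or not. Klf4, Il11, Cntf, Clcf1 and Icam1 were added after their values were seen. Alternatives changed the background correction, normalization, starting table, filter, prior, threshold, probe summary, block and samples. The marker sums without 1 gene and the counts of genes detected on all 6 arrays were added after the data were seen. So were the somatic marker genes named with their differences.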

Additional observations from a re-analysis of the deposited data

How the results depend on the processing

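All 10 called member probes kept their direction and call under every alternative in which they were tested. Requiring detection on all 6 arrays left 8 member probes and 6 calls, since it removes the dimmer Jak1 probes, a Jak2 probe and Pim1. Over all probes it left 12704 tested and 9139 called. Leaving out 1 sample at a time gave 8 to 10 called member probes, 38 to 42 called pathway genes and 10356 to 11760 called probes in all. The 8 came from leaving out an SSC sample, which drops the dimmer Jak1 probes from the filter. Same-numbered samples did not deviate together (correlations −0.14, −0.07 and 0.03). With 3 arrays per group this cannot show whether they were handled together, and the labels do not state a pairing. The replicate block left 10 member probes, 44 pathway genes and 12665 probes called. It changed no call of a member or pathway gene. Among uncalled members Lifr ranged from −0.086 to 0.074 when 1 sample was left out, changing sign without SSC replicate 1 (0.042), SSC replicate 3 (0.013) or ESC replicate 1, and turned to 0.27 with scaling on array medians. Il6st ranged from −0.029 (without SSC replicate 1, a change of sign) to 0.20 (without SSC replicate 3). Il6st was called with scaling on array medians (0.44). Jak1 turned to 0.36 with the mean of its tested probes, since those probes differ in sign. The cause of the other changes was not tested. Signal near background limits what can be said of Lifr, Osmr and Pim1.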
